A study of Homo sapiens with 12 samples.

Results

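Collagen hydroxylases and lysyl oxidases are enzymes that modify newly made collagen, and 10 of their genes are described here: P4HA1, P4HA2, P4HA3, PLOD1, PLOD2, PLOD3, LOX, LOXL1, LOXL2 and LOXL4. They are given by a list of names and are 10 of the 19775 genes measured. Together they have 21 probe sets on the array, and the main value of a gene comes from its brightest probe set, by the mean of all 12 arrays. All 10 genes entered every test, since no filter on low values was applied. RNA was measured on 12 arrays from FG and L3.6pl, human pancreatic carcinoma lines of different metastatic potential. The L3.6pl line was derived from FG by selection in mice. The 4 groups of 3 arrays were FG in normoxia, FG in hypoxia, L3.6pl in normoxia and L3.6pl in hypoxia. All cultures were grown from frozen stock for typically 9 days, and the hypoxic ones spent the final 24 h at 1% oxygen. The normoxic ones were left untreated, and the sources used here do not give their oxygen level. Both are tumour cell lines cultured without stroma, and nothing states that the replicates were separate cultures. The p-values therefore measure the spread between these arrays, which may be technical.

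Collagen chains are modified in the endoplasmic reticulum before they fold. Prolyl 4-hydroxylase joins a catalytic alpha subunit (P4HA1, P4HA2 or P4HA3) to protein disulfide isomerase (P4HB), and the hydroxyproline it makes keeps the triple helix stable at body temperature. Lysyl hydroxylases (PLOD1, PLOD2, PLOD3) hydroxylate lysines that later carry sugars or form cross-links. All of these use oxygen, 2-oxoglutarate, iron and ascorbate. Outside the cell the lysyl oxidases, which are copper enzymes and also use oxygen, turn lysines of collagen and elastin into aldehydes that cross-link the fibres. Several of these genes are textbook targets of the hypoxia-inducible factors, which bind a short DNA motif near their target genes.

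The 250 bases before the transcription start of 8 of the 10 genes were taken from RefSeq on GRCh38.p14, and 5 of them are printed 5′ to 3′ on the strand of the gene. P4HA1, P4HA2, PLOD2 and LOX are shown as examples of the 6 genes whose transcripts rose in hypoxia in both lines. PLOD1 and LOXL2 rose in both lines too, but the PLOD1 window is not printed, and no window was available for LOXL2 or P4HA3. PLOD3 is shown because its level differed between lines and was not called in hypoxia. Capitals mark ACGTG or GCGTG, the core of the motif that hypoxia-inducible factors bind, on either strand (so CACGT and CACGC are its reverse forms). P4HA1 is at chr10:73096867-73097116 on the minus strand, P4HA2 at chr5:132227092-132227341 on the minus strand, PLOD2 at chr3:146161185-146161434 on the minus strand, LOX at chr5:122078260-122078509 on the minus strand (before the most upstream of its 3 listed starts) and PLOD3 at chr7:101217582-101217831 on the minus strand.
P4HA1: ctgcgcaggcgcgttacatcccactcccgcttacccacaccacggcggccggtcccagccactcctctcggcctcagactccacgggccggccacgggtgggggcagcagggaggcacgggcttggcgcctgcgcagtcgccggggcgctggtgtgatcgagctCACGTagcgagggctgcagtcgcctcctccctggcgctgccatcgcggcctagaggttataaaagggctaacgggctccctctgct
P4HA2: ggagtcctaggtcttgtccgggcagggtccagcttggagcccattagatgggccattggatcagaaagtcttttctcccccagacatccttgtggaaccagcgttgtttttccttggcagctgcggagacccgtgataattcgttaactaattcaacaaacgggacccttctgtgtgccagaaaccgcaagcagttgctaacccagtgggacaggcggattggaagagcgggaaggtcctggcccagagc
PLOD2: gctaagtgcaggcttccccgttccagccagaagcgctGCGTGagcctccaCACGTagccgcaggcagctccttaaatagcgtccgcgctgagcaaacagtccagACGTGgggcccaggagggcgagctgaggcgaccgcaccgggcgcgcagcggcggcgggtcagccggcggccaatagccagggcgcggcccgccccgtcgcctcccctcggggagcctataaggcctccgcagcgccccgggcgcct
LOX: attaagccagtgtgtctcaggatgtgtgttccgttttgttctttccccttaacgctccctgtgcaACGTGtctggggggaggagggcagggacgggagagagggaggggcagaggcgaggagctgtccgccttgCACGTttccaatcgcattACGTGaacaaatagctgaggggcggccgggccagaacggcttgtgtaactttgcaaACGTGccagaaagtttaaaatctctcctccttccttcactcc
PLOD3: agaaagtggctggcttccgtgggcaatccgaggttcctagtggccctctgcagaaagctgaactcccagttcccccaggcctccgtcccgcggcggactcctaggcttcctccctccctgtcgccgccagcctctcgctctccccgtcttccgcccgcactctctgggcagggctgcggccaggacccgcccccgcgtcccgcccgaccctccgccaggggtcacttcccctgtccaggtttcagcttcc

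The LOX window held 4 matches to ACGTG, of which the nearest lay 42 to 38 bases before the start. PLOD2 held 2 of ACGTG and 1 of GCGTG, between 213 and 142 bases before the start, and P4HA1 held 1 of ACGTG, 86 to 82 bases before it. PLOD1, whose window is not printed, held 2 of GCGTG. No match lay in the windows of P4HA2, PLOD3, LOXL1 or LOXL4, which says only that these letters are not in those 250 bases. Over all 35116 promoter windows of this length, 43.2% held ACGTG or GCGTG and 18.5% held ACGTG. A match describes the sequence and is not a measured binding site.

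Within each group the arrays correlated at 0.974 to 0.996 over all genes, and 3 of them stood apart from their groups: replicate 1 of normoxic FG, replicate 1 of normoxic L3.6pl and replicate 3 of hypoxic L3.6pl. No numeric cutoff was applied in naming them. Replicate 1 of normoxic L3.6pl correlated with its group at 0.987 to 0.990. Replicates 1 and 3 of hypoxic FG, not named, had a lowest correlation of 0.989. The 6 epithelial markers, keratins and adhesion proteins, all lay above the median gene in every group. Of 9 fibroblast and stellate cell markers, 3 lay above it in FG and 2 in L3.6pl, with array means of 5.84 to 6.15 in FG and 5.36 to 5.86 in L3.6pl on the log2 scale. COL3A1, a fibrillar collagen on that list, averaged 11.02 in normoxic FG and 5.60 in normoxic L3.6pl, while the matrix proteoglycan gene DCN averaged between 5.15 and 5.31 in every group. In hypoxia, L3.6pl minus FG was -1.43 for COL1A1 of that list (adjusted p = 0.02) and, the other way, 0.83 for the actin gene ACTA2 (adjusted p = 0.039). The proteoglycan gene LUM, named after its values were seen, was at 1.90 in hypoxia (adjusted p = 0.0693) and 1.00 in normoxia (adjusted p = 0.433), neither called. Its hypoxic L3.6pl values were 2.90, 4.24 and 6.29 in replicates 1 to 3, the highest on the replicate that stood apart. Of 6 endothelial and blood cell markers, 2 lay above the median gene in each group, with array means of 4.93 to 5.20, and PECAM1 of that list was higher in hypoxic L3.6pl than in hypoxic FG, by 0.98 (adjusted p = 0.0087). The part of these markers in the differences between the lines was not tested. In bulk RNA, fewer cells of a type and less RNA per cell cannot be told apart. Of 6 hypoxia reference genes, known targets such as ADM and SLC2A1, 5 rose in each line. The sixth, VEGFA, was at 1.08 in FG and 0.57 in L3.6pl and did not pass. That list was chosen with earlier results of these data known, so it is no independent check of the oxygen labels.

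The first question was how these genes answered to low oxygen in each line. In FG, 6 of the 10 rose (P4HA1, P4HA2, PLOD1, PLOD2, LOX and LOXL2), LOXL1 fell, and P4HA3, PLOD3 and LOXL4 did not pass the test. In L3.6pl, 7 rose, the same 6 and LOXL4, and none was called lower. Over all genes tested, 4.24% were called higher and 6.47% lower in FG, and 3.89% higher and 2.97% lower in L3.6pl, at a Benjamini-Hochberg adjusted p below 0.05 in limma. Genes called higher in both lines made up 2.04% of all genes, against 6 of these 10. The list of names was drawn up with results of these data known, so these counts describe it and are no independent evidence. The median log2 difference of the 10 genes was 1.12 in FG and 1.52 in L3.6pl, where the medians of all genes were -0.03 and -0.02. The arrays of both oxygen conditions did not overlap for 7 of the 10 in FG and 8 in L3.6pl, against 27.9% and 24.4% of all genes. Without the 3 arrays that stand apart, the calls of the 10 genes stayed the same in both lines, except that LOXL1 was also called lower in L3.6pl. Its difference there was -0.62 (adjusted p = 0.0467). The share of all genes called in that fit is not given here.

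**Figure D1:**
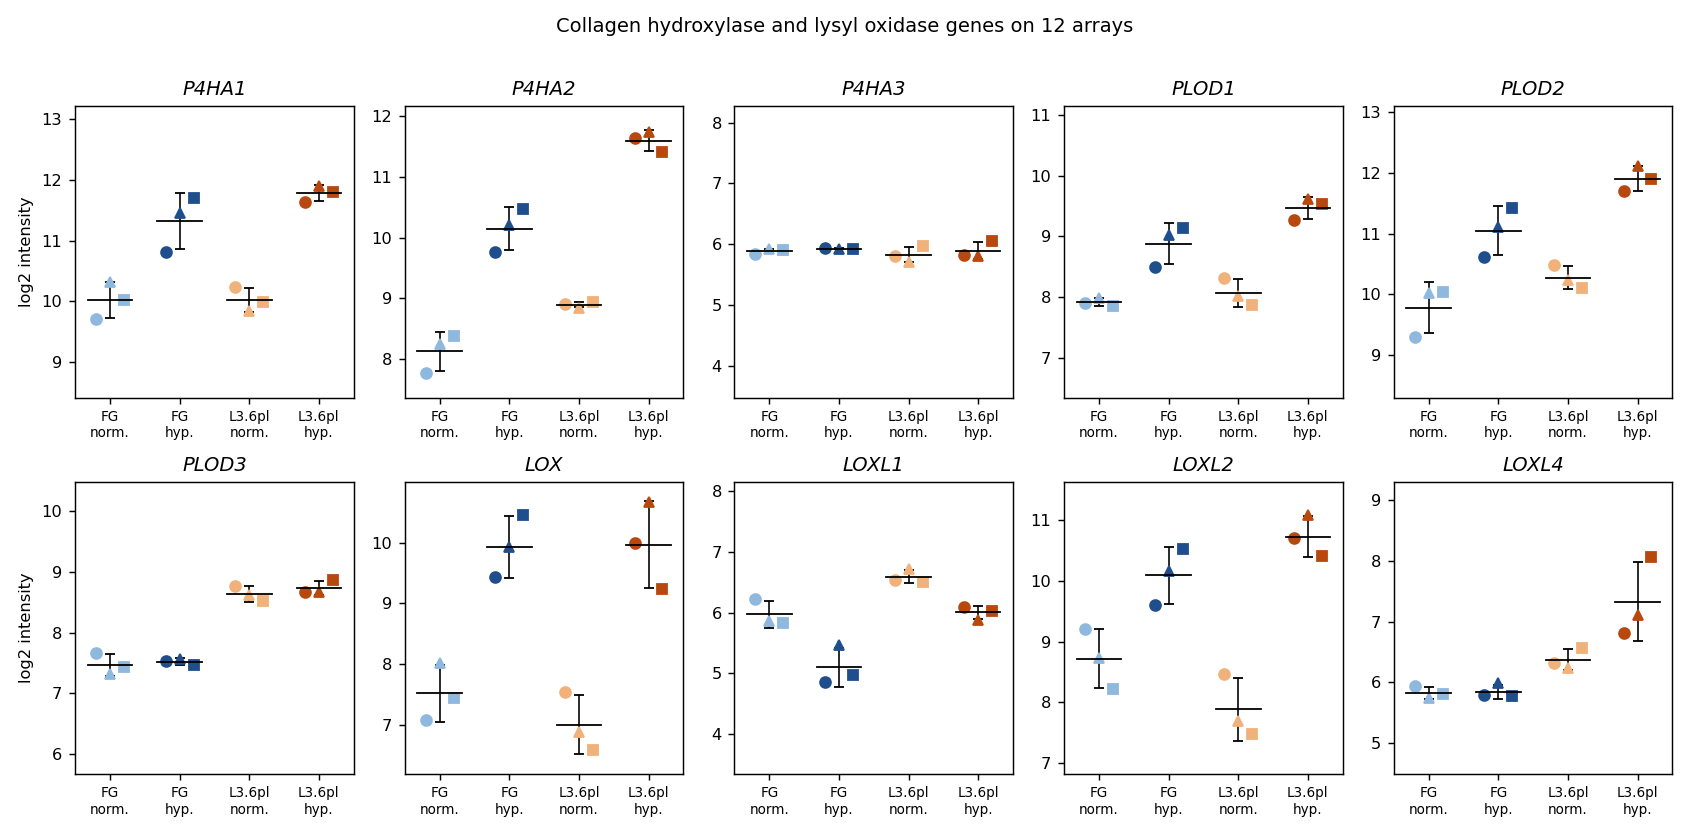
Log2 intensity (y axis, each panel spanning at least 4.8 log2 units) of each of the 10 genes on the 12 arrays, by group (x axis). Circles, triangles and squares are replicates 1, 2 and 3, black bars are group means and error bars are SDs of 3 arrays. P4HA1, P4HA2, PLOD1, PLOD2, LOX and LOXL2 are higher on every hypoxic array than on every normoxic array of the same line, PLOD3 is separated by line, and P4HA3 lies between 5.71 and 6.05 on all arrays.

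Among the prolyl 4-hydroxylase subunits, P4HA1 and P4HA2 rose in both lines and P4HA3 was called in neither. P4HA1, the alpha subunit of the most widespread form of the enzyme, was at 9.71, 10.31 and 10.03 on the log2 scale in normoxic FG and at 10.81, 11.45 and 11.71 in hypoxic FG, in replicates 1 to 3. In L3.6pl it was at 10.23, 9.84 and 9.99 in normoxia and at 11.63, 11.90 and 11.81 in hypoxia. All hypoxic arrays thus lay above all normoxic arrays, of either line, while the lines overlapped within each oxygen condition. P4HA1 rose 2.47-fold in FG (1.30 ± 0.221 log2, adjusted p = 0.00448) and 3.39-fold in L3.6pl (1.76 ± 0.221, adjusted p = 0.00151), where errors are limma's standard errors with 3 arrays in each group.

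P4HA2, the alpha subunit of the second form, separated all 4 groups. Its values were 7.77, 8.25 and 8.37 in normoxic FG, 8.91, 8.85 and 8.94 in normoxic L3.6pl, 9.77, 10.21 and 10.47 in hypoxic FG, and 11.64, 11.74 and 11.40 in hypoxic L3.6pl. No neighbours in that order overlapped. Hypoxia raised it 4.04-fold in FG (2.02 ± 0.192 log2, adjusted p = 0.000221) and 6.48-fold in L3.6pl (2.70 ± 0.192, adjusted p = 8.56e-05). In L3.6pl its p-value ranked 7 from the smallest of all genes, and its log2 difference ranked 28 from the highest. P4HA3, the third alpha subunit, differed by 0.04 ± 0.0964 in FG (95% interval -0.17 to 0.25) and by 0.06 ± 0.0964 in L3.6pl (-0.15 to 0.28).

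Of the lysyl hydroxylases, PLOD1 and PLOD2 rose in both lines and PLOD3 in neither. PLOD1, which acts on lysines of the triple helix, was at 7.90, 7.99 and 7.86 in normoxic FG and at 8.50, 9.01 and 9.13 in hypoxic FG. In L3.6pl it was at 8.32, 8.02 and 7.87 in normoxia and at 9.27, 9.61 and 9.53 in hypoxia. It rose 1.95-fold in FG (0.96 ± 0.172 log2, adjusted p = 0.00569) and 2.65-fold in L3.6pl (1.40 ± 0.172, adjusted p = 0.00132). PLOD2, which hydroxylates lysines in the end regions of collagen and so shifts the kind of cross-link formed, was at 9.29, 10.02 and 10.03 in normoxic FG and at 10.62, 11.11 and 11.42 in hypoxic FG. Its L3.6pl values were 10.48, 10.24 and 10.11 in normoxia and 11.70, 12.11 and 11.90 in hypoxia. As with P4HA2, the order of the groups ran from normoxic FG through normoxic L3.6pl and hypoxic FG to hypoxic L3.6pl, with no overlap between neighbours. The rise was 2.41-fold in FG (1.27 ± 0.237 log2, adjusted p = 0.00728) and 3.09-fold in L3.6pl (1.63 ± 0.237, adjusted p = 0.00302).

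PLOD3, a lysyl hydroxylase that also adds sugars to hydroxylysine, followed the line and not the oxygen level. It was at 7.66, 7.32 and 7.43 in normoxic FG, 7.54, 7.57 and 7.46 in hypoxic FG, 8.77, 8.61 and 8.52 in normoxic L3.6pl, and 8.66, 8.66 and 8.86 in hypoxic L3.6pl. Every L3.6pl array lay above every FG array, and the oxygen conditions overlapped within each line. The log2 difference in hypoxia was 0.05 ± 0.112 in FG (95% interval -0.19 to 0.30) and 0.09 ± 0.112 in L3.6pl (-0.15 to 0.34).

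The lysyl oxidases moved in different directions. LOX, the founding member of the family, rose the most of the 10 genes in both lines. It was at 7.08, 8.02 and 7.44 in normoxic FG and at 9.43, 9.92 and 10.45 in hypoxic FG. In L3.6pl it was at 7.54, 6.88 and 6.58 in normoxia and at 9.99, 10.66 and 9.23 in hypoxia. LOX had the largest standard error of the 10 genes, and its hypoxic values still lay above all normoxic ones. LOX rose 5.33-fold in FG (2.42 ± 0.397 log2, adjusted p = 0.00376) and 7.78-fold in L3.6pl (2.96 ± 0.397, adjusted p = 0.00193), ranks 60 and 15 of 19775 from the highest log2 difference. Without the 3 arrays that stand apart, the L3.6pl difference was 3.59.

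LOXL2, a lysyl oxidase with scavenger receptor domains that cross-links type IV collagen, rose in both lines as well. Its FG values were 9.21, 8.72 and 8.23 in normoxia and 9.60, 10.16 and 10.53 in hypoxia, and its L3.6pl values 8.46, 7.70 and 7.49 in normoxia and 10.70, 11.08 and 10.41 in hypoxia. Hypoxic arrays lay above normoxic ones in both lines, with a wide gap in L3.6pl and a narrow one in FG. LOXL2 rose 2.59-fold in FG (1.37 ± 0.330 log2, adjusted p = 0.0236) and 7.18-fold in L3.6pl (2.84 ± 0.330, adjusted p = 0.00107). The FG call was lost without normoxia replicate 2 (0.0681) or 3 (0.0805), or hypoxia replicate 2 (0.0858) or 3 (0.0776).

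LOXL1, known for its part in elastic fibres, was the only one of the 10 genes called lower. It was at 6.23, 5.86 and 5.83 in normoxic FG and at 4.87, 5.46 and 4.97 in hypoxic FG, so that all hypoxic arrays were below all normoxic ones. It fell by 0.87 ± 0.163 on the log2 scale in FG, a 1.83-fold decrease (adjusted p = 0.00713). In L3.6pl it was at 6.55, 6.72 and 6.51 in normoxia and at 6.10, 5.89 and 6.03 in hypoxia, a difference of -0.59 ± 0.163 that did not pass (adjusted p = 0.0565) although the arrays did not overlap. It passed without FG hypoxia replicate 2 (0.0264), without FG normoxia replicate 1 (0.0344), and without the 3 arrays that stand apart (0.0467). LOXL4, another lysyl oxidase with scavenger receptor domains, was at 5.94, 5.74 and 5.81 in normoxic FG and at 5.79, 5.98 and 5.77 in hypoxic FG. In L3.6pl it was at 6.32, 6.23 and 6.57 in normoxia and at 6.82, 7.10 and 8.07 in hypoxia. The L3.6pl arrays did not overlap, and replicate 3, one of the arrays that stand apart, was the highest. The difference was 0.02 ± 0.254 in FG (adjusted p = 0.981) and 0.96 ± 0.254 in L3.6pl, a 1.94-fold rise close to the threshold (adjusted p = 0.0489). Leaving out single arrays ended that call for 9 of the 12, with adjusted p of up to 0.174; it held without FG normoxia replicate 1 and without L3.6pl hypoxia replicate 1 or 3. Without that replicate 3 the difference was 0.59 (adjusted p = 0.02). The call was also lost with only the groups compared (0.149) and with all probe sets tested singly (0.0548).

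**Figure D2:**
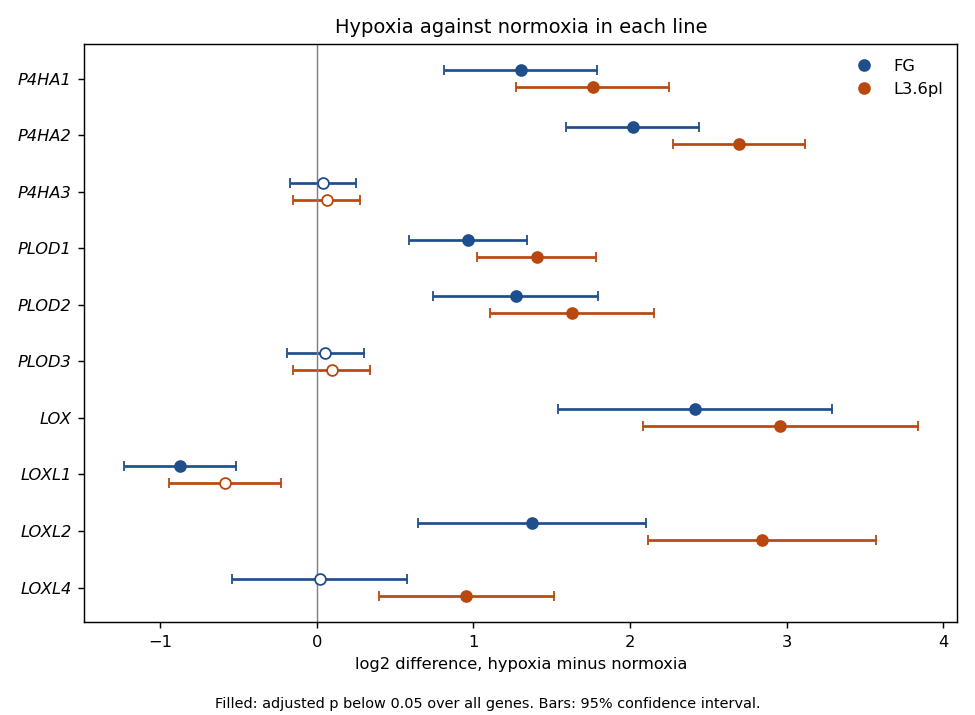
Log2 difference of hypoxia minus normoxia (x axis) for each gene (y axis) in FG (blue) and L3.6pl (orange), with limma's 95% confidence intervals; filled points passed at an adjusted p below 0.05. LOX, P4HA2 and LOXL2 lie farthest to the right in L3.6pl at 2.96, 2.70 and 2.84, and LOXL1 is the only gene to the left of zero.

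A further comparison asked whether the lines differed in their answer to hypoxia. The difference was more positive in L3.6pl for all 10 genes, where 52.2% of all genes were more positive there, and the differences of the lines correlated at 0.947 over the 10 genes and at 0.705 over all genes. These are correlations across genes, which are not independent replicates. The interaction, the L3.6pl difference minus the FG difference, was called for none of the 10 genes in limma, and for 0.0253% of all genes. At an unadjusted p below 0.05 it held for 3 of the 10 and for 7.22% of all genes. These 3 were LOXL2 at 1.47 ± 0.467 (95% interval 0.44 to 2.50, adjusted p = 0.435), LOXL4 at 0.94 ± 0.359 (0.14 to 1.73, adjusted p = 0.572) and P4HA2 at 0.68 ± 0.271 (0.08 to 1.28, adjusted p = 0.604). Same-numbered arrays of the lines deviated together. With the replicate number as a block within each oxygen condition the LOXL2 interaction passed, at the same 1.47 (adjusted p = 0.0386). That fit was added after the data were seen. It called the interaction for 703 genes, against 5 without the block, so the pass came with wider calling over all genes. With array weights LOXL2 passed at 1.69 (adjusted p = 0.0263) and P4HA2 at 0.89 (adjusted p = 0.0339). For the other 7 genes the interaction ran from 0.02 for P4HA3 to 0.55 for LOX, with adjusted p of at least 0.789.

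The levels of the lines were then compared within each oxygen condition; these comparisons use the same arrays as the hypoxia comparisons. In normoxia, P4HA2, PLOD3 and LOXL1 were higher in L3.6pl and none of the 10 was lower, where 5.16% of all genes were called higher and 5.54% lower. In hypoxia, P4HA2, PLOD1, PLOD2, PLOD3, LOXL1 and LOXL4 were higher and none was lower, where 10% of all genes were called higher and 6.72% lower. The arrays of the lines did not overlap for 5 genes in normoxia and 6 in hypoxia, against 28.1% and 32.1% of all genes. The median log2 difference of the 10 genes was 0.32 in normoxia and 0.74 in hypoxia, and that of all genes 0.02 in both.

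PLOD3 showed the clearest difference between the lines, 2.24-fold higher in L3.6pl in normoxia (1.16 ± 0.112 log2, adjusted p = 9.62e-05) and 2.30-fold higher in hypoxia (1.20 ± 0.112, adjusted p = 5.79e-05). All 3 same-numbered pairs gave a log2 difference above 1 in both conditions, from 1.09 to 1.40. P4HA2 was 1.70-fold higher in normoxia (0.77 ± 0.192, adjusted p = 0.0272) and 2.73-fold higher in hypoxia (1.45 ± 0.192, adjusted p = 0.000517). LOXL1 was 1.54-fold higher in normoxia (0.62 ± 0.163, adjusted p = 0.0343) and 1.87-fold higher in hypoxia (0.90 ± 0.163, adjusted p = 0.00324). Both normoxia calls depended on single arrays: leaving out single arrays ended the P4HA2 call for 5 of the 12 (adjusted p of up to 0.0875) and the LOXL1 call for 5 (up to 0.131). These were each normoxic L3.6pl array for both genes, with FG normoxia replicates 1 and 2 for P4HA2 and replicates 2 and 3 for LOXL1. The P4HA2 call in normoxia was also lost when all its probe sets were averaged (0.33, adjusted p = 0.194) and when the 3 outlying arrays were removed together (0.58, adjusted p = 0.0924). In hypoxia the P4HA2 and LOXL1 calls held without each array.

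LOXL4 was 2.80-fold higher in hypoxic L3.6pl (1.48 ± 0.254 log2, adjusted p = 0.00246), and in normoxia it differed by 0.55 ± 0.254 without passing (adjusted p = 0.241), with no overlap. That normoxic difference passed with array weights (adjusted p = 0.0062), with only the groups compared (0.0375), without L3.6pl hypoxia replicate 3 (0.015) and with the 3 outlying arrays removed together (0.0266). PLOD2 was 1.81-fold higher in hypoxic L3.6pl (0.86 ± 0.237, adjusted p = 0.0314) and PLOD1 1.51-fold higher (0.59 ± 0.172, adjusted p = 0.0386). Leaving out single arrays ended the PLOD2 call for 4 of the 12 (FG hypoxia replicates 1 and 2 and L3.6pl hypoxia replicates 2 and 3, adjusted p of up to 0.118) and the PLOD1 call for 7 (up to 0.126): replicates 1 and 2 of hypoxic FG, 2 and 3 of normoxic FG, 2 and 3 of hypoxic L3.6pl, and 2 of normoxic L3.6pl. The PLOD1 call was also lost after cyclic loess normalization (0.0707), with only the groups compared (0.0903), with trend and robust moderation (0.0551) and with the 3 outlying arrays removed together (0.0645). P4HA1 and LOX passed in neither condition. P4HA1 differed by 0.00 ± 0.221 in normoxia and 0.46 ± 0.221 in hypoxia, and LOX by -0.52 ± 0.397 in normoxia and 0.03 ± 0.397 in hypoxia. With array weights the normoxic LOX difference passed, at -1.02 (adjusted p = 0.00456). That fit called 6623 genes between the lines in normoxia, against 2116 without weights. The normoxic LOX and LOXL4 calls with array weights thus came with wider calling over all genes.

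LOXL2 had line differences of opposite sign in the oxygen conditions, as LOX did with a hypoxic difference near zero. LOXL2 was at -0.84 ± 0.330 in normoxia (adjusted p = 0.156) and 0.63 ± 0.330 in hypoxia (adjusted p = 0.248), neither called. The same-numbered pairs, L3.6pl minus FG, were at -0.75, -1.02 and -0.74 in normoxia and at 1.10, 0.92 and -0.12 in hypoxia. All 3 normoxic pairs were lower in L3.6pl, and 2 of 3 hypoxic pairs were higher. With the replicate number as a block within each oxygen condition, the normoxic difference was called (adjusted p = 0.0212) and the hypoxic one was not (0.052). The normoxic one was also called with array weights (0.00195), which called 6623 genes in that comparison, against 2116 without weights. The LOXL2 values so far are from the main probe set. On another LOXL2 probe set, 202997_s_at, the line difference was -0.13 in normoxia with overlapping arrays (adjusted p = 0.868). In hypoxia that probe set was at 0.50 (adjusted p = 0.226), and neither difference was called.

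**Figure D3:**
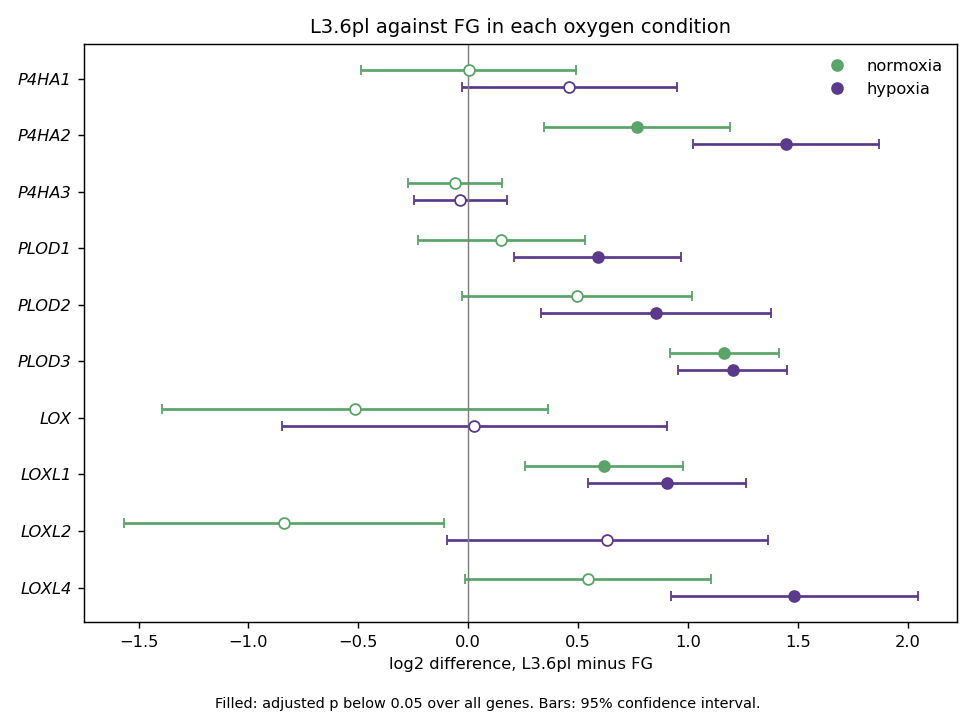
Log2 difference of L3.6pl minus FG (x axis) for each gene (y axis) in normoxia (green) and hypoxia (purple), with limma's 95% confidence intervals; filled points passed at an adjusted p below 0.05. PLOD3 is at 1.16 and 1.20, and LOXL2 is the gene whose points lie farthest apart, at -0.84 and 0.63.

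The 6 genes that rose in both lines took the same place among the replicate arrays in some groups. In hypoxic FG, replicate 1 was the lowest of 3 for all 6 and replicate 3 the highest for all 6, where 35.0% and 43.3% of all genes were lowest and highest on these arrays. In hypoxic L3.6pl, replicate 2 was the highest for all 6, against 19.9% of all genes, while replicates 1 and 3 were each the lowest for 3. The normoxic groups were mixed: in FG, replicate 1 was the lowest for 4 genes and the highest for 1, and replicate 3 was the lowest for 2 and the highest for 2. In normoxic L3.6pl, replicate 1 was the highest for 5 and replicate 3 the lowest for 4. Over the 12 arrays, which share the 4 groups, the 6 genes correlated with each other at 0.805 (PLOD2 with LOXL2) to 0.981 (P4HA2 with PLOD2). LOXL1 correlated negatively with all 6, from -0.290 with P4HA2 to -0.682 with LOX, and PLOD3 correlated with LOXL4 at 0.804 and with LOX at -0.0458.

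Most of the genes have more than 1 probe set, and these did not always report alike. The second PLOD2 probe set rose 3.84-fold in FG (adjusted p = 0.000724) and 4.36-fold in L3.6pl (adjusted p = 0.000841), above the 2.41-fold and 3.09-fold of the main one. Of the other LOX probe sets, 204298_s_at rose 8.60-fold in FG and 12.2-fold in L3.6pl, and 213640_s_at rose 6.35-fold and 6.59-fold, so that all 3 rose in both lines. For LOXL2, 202997_s_at rose 2.18-fold in FG (adjusted p = 0.0149) and 3.39-fold in L3.6pl (adjusted p = 0.00287), a smaller gap between lines than on the main probe set. The remaining LOXL2 probe sets, 202999_s_at and 228808_s_at, lay between 4.50 and 4.91 on the log2 scale on every array and were not called. For P4HA2 the main probe set alone passed for hypoxia against normoxia. In that comparison 1568611_at was at 0.23 in FG (adjusted p = 0.762) and 1.19 in L3.6pl, where its arrays did not overlap (adjusted p = 0.0719). Between the lines in hypoxia, 1568611_at was higher in L3.6pl by 1.18 (adjusted p = 0.0445), with overlapping arrays. The 243335_at probe set of P4HA1 stayed between 3.17 and 3.76 and was not called. Averaging all probe sets of a gene shrank the hypoxia differences to 0.74 in FG and 1.34 in L3.6pl for P4HA2, to 0.67 and 1.12 for LOXL2, and to 0.95 in L3.6pl for P4HA1, and all of these still passed. The same averaging put LOXL4 at 0.43 in hypoxic L3.6pl (adjusted p = 0.0634) and at 0.70 between the lines in hypoxia, where it still passed. The second LOXL4 probe set, 1570219_at, showed no rise and lay between 4.55 and 4.81 on every array. It was at -0.10 for hypoxia in L3.6pl (adjusted p = 0.617) and at -0.09 between the lines in hypoxia (adjusted p = 0.607).

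**Figure D4:**
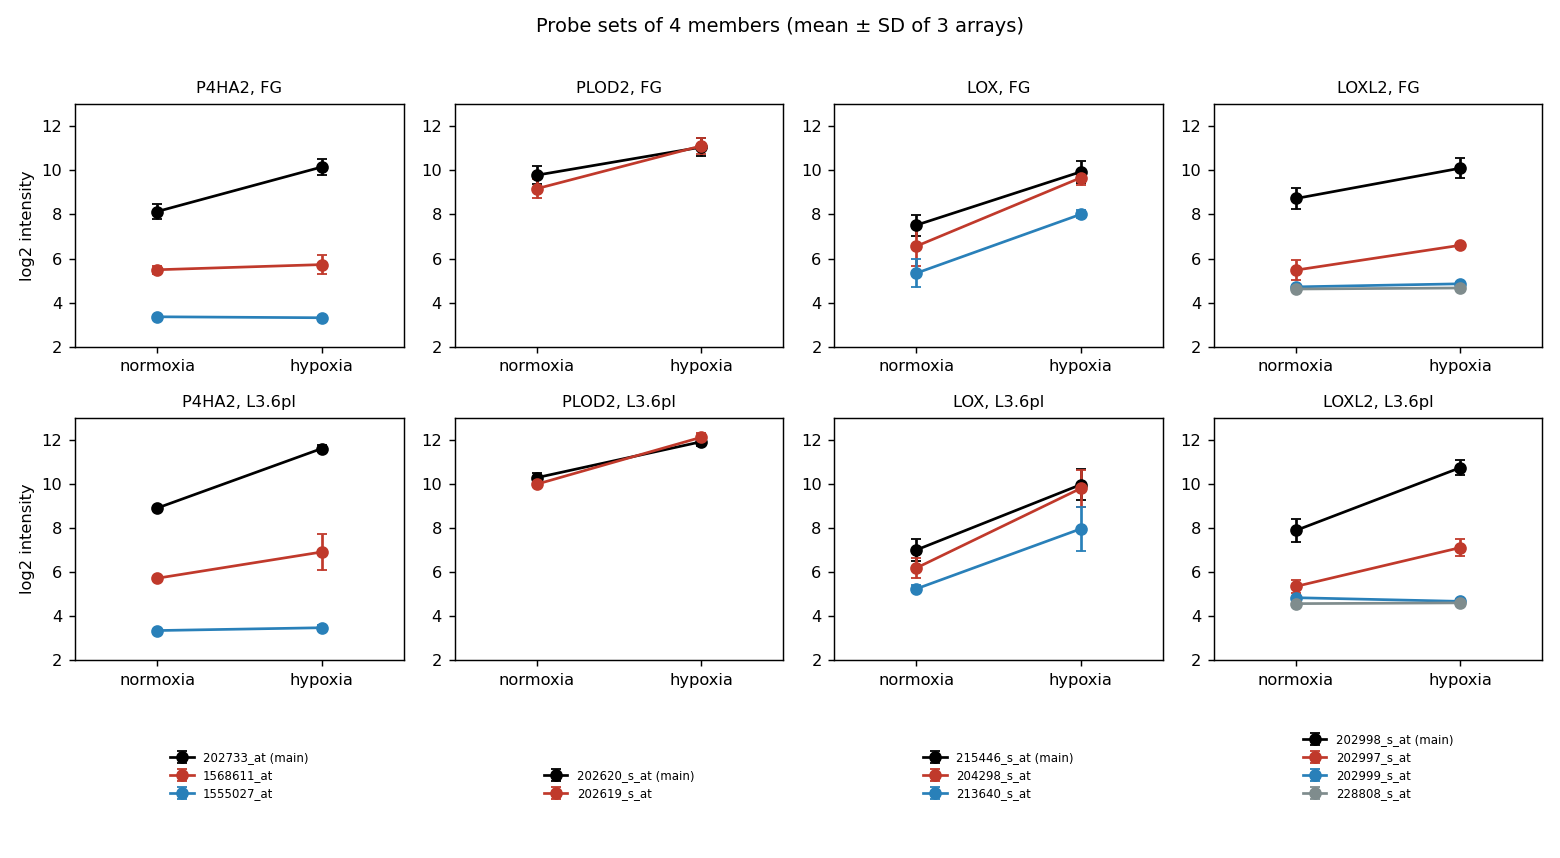
Group means of log2 intensity (y axis, error bars SD of 3 arrays) in normoxia and hypoxia (x axis) for every probe set of P4HA2, PLOD2, LOX and LOXL2, in FG (upper row) and L3.6pl (lower row). All LOX and PLOD2 probe sets slope upward in both lines, while LOXL2 probe sets 202999_s_at and 228808_s_at are level between 4.50 and 4.91.

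The enzymes were set beside the proteins they work with. Of 25 measured genes of collagen biosynthesis partners (chaperones, prolyl 3-hydroxylases, glycosyltransferases, propeptide proteases and export factors), none rose and 3 fell in hypoxic FG, with a median log2 difference of -0.13. In L3.6pl, 2 rose and 2 fell, with a median of -0.01. Over all genes, 4.24% rose and 6.47% fell in FG, and 3.89% rose and 2.97% fell in L3.6pl. P4HB, the partner of the P4HA subunits, was at -0.15 in FG (adjusted p = 0.699) and 0.13 in L3.6pl (adjusted p = 0.762), and the prolyl isomerase PPIB at 0.04 and 0.03. The genes lower in FG were the prolyl 3-hydroxylase P3H1 (-0.77, adjusted p = 0.0284), the glycosyltransferase COLGALT1 (-0.45, adjusted p = 0.0262) and the export receptor MIA3 (-0.58, adjusted p = 0.0114), all 3 named after their values were seen. SERPINH1, the collagen chaperone HSP47, fell by 0.44 in L3.6pl (adjusted p = 0.0218) and was at -0.33 in FG (adjusted p = 0.0572). Also called in L3.6pl, and named after their values were seen, were ADAMTS3 (-1.03, adjusted p = 0.0235), SEC23A (0.52, adjusted p = 0.034) and PCOLCE (0.37, adjusted p = 0.0471). The fourth lysyl oxidase-like gene on the array, LOXL3, kept in this list, was at -0.13 in FG and -0.29 in L3.6pl and did not pass.

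Between the lines, 6 of the 25 partners were higher in L3.6pl in normoxia and 7 in hypoxia, and none was lower. Over all genes, 5.16% were higher and 5.54% lower in normoxia, and 10% were higher and 6.72% lower in hypoxia. FKBP10, a chaperone needed for lysine hydroxylation of collagen ends, was higher by 2.33 log2 in normoxia (adjusted p = 0.00831) and 2.75 in hypoxia (adjusted p = 0.00218). P3H4, a partner of PLOD1 in the endoplasmic reticulum, was higher by 1.18 (adjusted p = 0.00639) and 1.36 (adjusted p = 0.00188). FKBP14, a prolyl isomerase of the same compartment, was higher by 1.26 and 1.27, and SERPINH1 by 0.61 and 0.49, all called.

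The substrates were then examined. Of 27 measured collagen and elastic fibre genes, 2 rose in FG and 1 in L3.6pl and none fell, with medians of 0.10 and 0.09. The shares of all genes were 4.24% higher and 6.47% lower in FG, and 3.89% higher and 2.97% lower in L3.6pl. COL4A2, a basement membrane collagen chain, rose by 1.12 in FG (adjusted p = 0.00134) and was at 0.47 in L3.6pl (adjusted p = 0.0906). Its partner chain COL4A1, named after its values were seen, rose by 1.53 in FG (adjusted p = 0.00315) and 0.96 in L3.6pl (adjusted p = 0.0399). Between the lines, 1 substrate was higher and 4 were lower in L3.6pl in normoxia, and 22 were not called, with a median of -0.08 and 5.54% of all genes lower. In hypoxia 1 was higher, 7 were lower and 19 were not called, with a median of -0.10 and 6.72% of all genes lower. In normoxia, L3.6pl minus FG was -5.42 for COL3A1 (adjusted p = 1.1e-05) and -4.47 for the fibril-associated COL12A1 (adjusted p = 1.1e-05), while COL4A6, a basement membrane chain, was at 1.21 (adjusted p = 0.0211). COL4A5 and COL7A1 passed in no comparison.

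**Figure D5:**
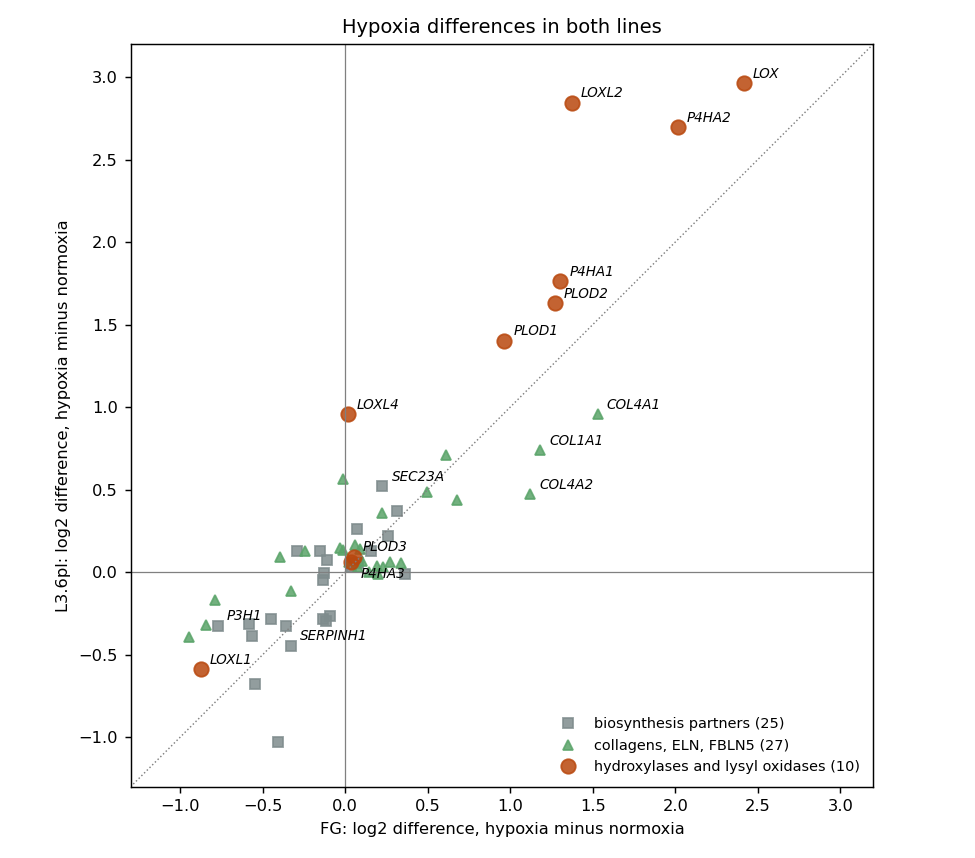
Log2 difference of hypoxia minus normoxia in L3.6pl (y axis) against that in FG (x axis) for the 10 enzymes (orange circles), 25 biosynthesis partners (grey squares) and 27 collagen and elastic fibre genes (green triangles), with a dotted line of equal difference. The 6 enzymes that rose in both lines lie above the dotted line at the upper right. The partners run from -0.77 to 0.36 in FG and from -1.03 to 0.52 in L3.6pl, with medians of -0.13 and -0.01.

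For each enzyme the 3 genes with the most similar profile over the 12 arrays were found among 13839 genes with a mean of at least 5 on the log2 scale. P4HA1 was most like BNIP3, a mitochondrial protein of the BCL2 family (Pearson's r 0.989), and P4HA2 like SH3GLB1 (0.988) and EGLN3, the oxygen-sensing prolyl hydroxylase (0.987). LOX was closest to PFKFB4, a regulator of glycolysis (0.989), PLOD1 to HCAR3 (0.985) and PLOD2 to P4HA2 (0.981). LOXL2 was closest to ANO6 (0.970). PLOD3, whose profile followed the line, was closest to the elongation factor EEF1A2 (0.995), LOXL4 to the bradykinin receptor BDKRB2 (0.984), LOXL1 to LY6E (0.963) and P4HA3 to SHLD1 (0.896). These correlations span the 4 groups, so that any gene with the same order of groups scores high.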

How the data were processed

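RNA was hybridised to 12 Affymetrix arrays, each with 54675 probe sets. The deposited values are intensities on a linear scale. RMA is the tool that the submitters' processing notes name; its version and the step back to a linear scale are not given in the sources used here. Array medians ran from 39.1 to 41.4, and log2 was taken here (1.96 to 14.5) with no further normalization. Of the probe sets, 41091 had 1 gene in the platform annotation, 1801 several (used for no gene) and 11721 none; 62 are controls. Symbols were updated through the RefSeq gene table of GRCh38.p14, and the probe set with the highest mean stood for each of 19775 genes.

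One model with a mean for each group was fitted to all 12 arrays with limma 3.58.1 in R 4.3.3 (eBayes, 8 residual and 2.72 prior degrees of freedom), and adjusted p-values are Benjamini-Hochberg over all genes. With 3 arrays against 3, an exact two-sided test reaches 0.1 at best. The number of arrays limits the precision. The fit was tested on simulated data.

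The 10 genes were given by name. From each list, the text names at most 4 called genes (by adjusted p) and at most 2 uncalled genes (by highest mean), and others are said to be named after their values were seen. The members and lists were chosen with earlier results of these data known. Lists covered biosynthesis partners, substrates, cofactor supply, oxygen-sensing hydroxylases, hypoxia reference genes, and epithelial, fibroblast, and endothelial and blood cell markers. Deviations from group means correlated between same-numbered arrays of the lines at 0.528 to 0.735 in normoxia and 0.358 to 0.462 in hypoxia. The labels do not say whether same-numbered arrays belong together. The main fit has no block for the replicate number, so its p-values take no account of such pairing. Between oxygen conditions of a line these correlations ran from -0.217 to 0.413. They were positive for replicate 3 only, at 0.259 in FG and 0.413 in L3.6pl. Alternatives were another normalization, filter, probe set rule, moderation, threshold, block or set of arrays.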

Additional observations from a re-analysis of the deposited data

Results flagged for a closer look

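LOXL2 and P4HA2 were singled out because their hypoxia difference differed between the lines by a test of that difference in some of the fits. For LOXL2 the L3.6pl difference exceeded the FG difference by 1.47 on the log2 scale with the replicate number as a block within each oxygen condition, a fit added after the data were seen (limma, adjusted p = 0.0386), and by 1.69 with array weights (adjusted p = 0.0263). Without block or weights the LOXL2 value of 1.47 did not pass (adjusted p = 0.435). For P4HA2 it was 0.89 with array weights (adjusted p = 0.0339) and 0.68 without them, which did not pass (adjusted p = 0.604). The probe set 202997_s_at of LOXL2 gave hypoxia differences of 1.13 in FG and 1.76 in L3.6pl. Its interaction was 0.64 and did not pass (adjusted p = 0.801). The fit with the replicate block within each oxygen condition called the interaction for 703 genes, against 5 without block or weights.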

How the results depend on the processing

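Over 24 alternatives, single arrays left out included, 489 of 538 values of called results kept their direction and call and the other 49 kept their direction alone; of 632 values of results not called, 589 stayed so with the same direction, 16 passed and 27 changed sign. The rises of P4HA1, P4HA2, PLOD1, PLOD2 and LOX held in both lines under the 23 alternatives run for the hypoxia comparisons. Enzymes higher in normoxic L3.6pl numbered 3, but 1 at an adjusted p below 0.01 and 1 to 4 without single arrays. Enzymes lower there numbered 0, but 2 (LOX and LOXL2) with array weights and 1 (LOXL2) with the replicate block within each oxygen condition. Enzymes with a higher interaction numbered 0, but 2 with array weights (P4HA2 at 0.0339 and LOXL2 at 0.0263, adjusted p) and 1 with that block. Within L3.6pl, enzymes called lower in hypoxia than in normoxia numbered 0, and 0 to 1 without single arrays. The number was 1 (LOXL1) with array weights, with the filter on dim genes, with only the groups compared and without the 3 arrays. The cause of these changes was not tested. A replicate block over all arrays changed no enzyme's call.

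Values that changed sign were all of results not called. In cyclic loess, LOX in hypoxia between lines was -0.0572, P4HA1 in normoxia between lines -0.0144, and the interactions of P4HA3 and PLOD3 -0.0012 and -0.0443. With array weights, P4HA1 was -0.35 between lines in normoxia and the PLOD3 interaction -0.13. Without the 3 arrays, P4HA1 was -0.26 between lines in normoxia, P4HA3 -0.0309 in hypoxic L3.6pl, and the interactions of P4HA3 and PLOD3 -0.0463 and -0.0535. Averaging all probe sets put P4HA3 at 0.0406 between lines in hypoxia and 0.0320 in normoxia. Without single arrays, ranges were -0.32 to 0.39 (LOX) and -0.116 to 0.00784 (P4HA3) between lines in hypoxia, -0.15 to 0.15 (P4HA1) between lines in normoxia, -0.0517 to 0.0722 (LOXL4) and -0.0218 to 0.151 (PLOD3) in hypoxic FG, -0.0178 to 0.133 (P4HA3) in hypoxic L3.6pl, and -0.0558 to 0.095 (P4HA3) and -0.0573 to 0.116 (PLOD3) for the interaction.

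Genes called over all 19775 ran from 860 to 5729 in hypoxic FG (2117 as reported), 475 to 5192 in hypoxic L3.6pl (1357), 1025 to 6623 between lines in normoxia (2116), 1718 to 5935 in hypoxia (3310) and 2 to 703 for the interaction (5). The lowest counts all came with an adjusted p below 0.01. The highest came with array weights, except in hypoxia between lines and for the interaction, where the replicate block within each oxygen condition gave them. P4HA3 in every group, LOXL1 in FG and in hypoxic L3.6pl, and LOXL4 in FG lay below the median gene at 6.30, where signal over background limits what a difference can show.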

Other observations

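Of 9 measured genes that supply ascorbate, iron or copper to these enzymes, none rose and 1 fell in hypoxic FG, and none was called in L3.6pl. Of all genes, 6.47% were called lower in FG. The one that fell in FG was the ascorbate transporter SLC23A2, at -1.02 ± 0.217 log2 (adjusted p = 0.0137), and it was at -0.50 in L3.6pl (adjusted p = 0.216). For the iron storage subunit FTL, L3.6pl minus FG was -0.56 in normoxia (adjusted p = 0.00735) and -0.47 in hypoxia (adjusted p = 0.0132), both called. SLC31A2, a copper transporter, was higher in hypoxic L3.6pl by 0.92 (adjusted p = 0.0141). The transferrin receptor TFRC and the copper chaperone ATOX1 passed in no comparison.

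Among 5 other 2-oxoglutarate hydroxylases, those of oxygen sensing, 1 rose in each line, against 4.24% of all genes in FG and 3.89% in L3.6pl. EGLN3, which marks hypoxia-inducible factors for degradation, rose by 2.38 ± 0.278 in FG (adjusted p = 0.000638) and 3.43 ± 0.278 in L3.6pl (adjusted p = 0.000171). EGLN1, of the same family, was lower in normoxic L3.6pl than in normoxic FG, at -0.85 (adjusted p = 0.0271), and HIF1AN was higher in hypoxic L3.6pl by 0.74 (adjusted p = 0.0141). EGLN2 and P4HTM passed in no comparison.

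LOXL1-AS1, the antisense gene of LOXL1, was looked at after the LOXL1 values were seen. In FG it ran from 5.83 to 6.46 in normoxia and from 5.26 to 5.76 in hypoxia, with no overlap, a difference of -0.52 that did not pass (adjusted p = 0.123). In L3.6pl it differed by -0.04 (adjusted p = 0.947). Like LOXL1, it was higher in hypoxic L3.6pl than in hypoxic FG, by 0.90 (adjusted p = 0.00876).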
